A study of Mus musculus with 12 samples.

Results

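The 10 genes described here encode transcription factors and chromatin organizers that define the naive T cell and keep it quiescent: *Tcf7*, *Lef1*, *Klf2*, *Foxo1*, *Foxp1*, *Bach2*, *Satb1*, *Bcl11b*, *Ets1* and *Ikzf1*. They were taken from the count table by symbol, and all 10 had a row among its 49585 genes. All 10 were also among the 13118 genes that passed the filter on low counts.

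A naive T cell circulates between blood and lymph nodes (LNs) without dividing until it meets its antigen. TCF-1 (encoded by *Tcf7*) and LEF-1 are related DNA-binding proteins that establish the T cell program in the thymus and are lost as effector cells differentiate. FOXO1 is kept active by low growth factor signaling and turns on genes for recirculation, among them *Klf2*, while FOXP1 and BACH2 hold back activation and effector genes. SATB1 folds chromatin, BCL11B guards T cell commitment, and ETS1 and IKAROS (encoded by *Ikzf1*) act throughout lymphoid development.

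RNA-seq was compared between 4 groups of sorted LN T cells, with 3 samples each. CD4+ and CD8+ T cells came from C57BL/6 (B6) mice. CD8.1 and CD8.2 T cells came from CD8Dual mice, called 8in4 in the sample titles, in which the *Cd4* locus was altered so that it makes CD8α.1 and CD8β in place of CD4 and the *Cd8* locus was left to encode CD8α.2. CD8.1 T cells therefore carry CD8 made from the *Cd4* locus, and CD8.2 T cells carry CD8 made from the *Cd8* locus. The labels give the mice as males of 6 to 10 weeks, and RNA came from pooled sorted cells. Both strains were sorted for the T cell receptor β-chain (antibody H57) and for a naive surface phenotype. The study's methods add a CD44− gate that the labels do not name. The labels do not say whether the 3 samples of a group came from separate mice, so P values measure the spread between these samples, which may be technical. Per the study's methods B6 mice were purchased, while CD8Dual mice were constructed by the authors. The library names number all B6 samples before all CD8Dual samples. Differences between the strains therefore cannot be told apart from those of mouse source or library order.

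Library totals were 18667474 to 37110502 counts. Each member had 1130 to 39484 counts in every sample, and 3 counts, the limit below which a gene was treated as not detected, equalled 0.0875 to 0.167 CPM (counts scaled by the library total). The B6 co-receptor genes followed the labels: *Cd4* was at 969 ± 53.0 CPM (SD, n = 3) in B6 CD4+ T cells and at 0.244 ± 0.1196 in B6 CD8+ T cells, and *Cd8a* was at 1423 ± 48.8 CPM in B6 CD8+ T cells. CD8.1 T cells had 192 ± 11.5 CPM of *Cd8a*, and CD8.2 T cells had 1460 ± 30.4. Reads of *Cd4* stood at 49.7 ± 2.27 CPM in CD8.1 T cells, whose *Cd4* locus was altered, and at 1.47 ± 0.341 in CD8.2 T cells. *Zbtb7b*, the factor of the helper lineage, was at 159 ± 5.11 CPM in B6 CD4+ T cells, at 117, 173 and 172 CPM in the CD8.1 samples and at a mean of 0.931 and 1.91 CPM in B6 CD8+ and CD8.2 T cells. CD8.1 replicate 1 stood apart from the other CD8.1 libraries, with correlations of log2 CPM of 0.982 to both, against 0.988 between the other two. CD8.2 replicate 3 held 34010 CPM of *Gm42418*, against 895 to 8877 CPM in the remaining 11 libraries. Member calls that changed without CD8.1 replicate 1 are given both ways, as are the within-group correlations of the member pairs named. Correlations of other member pairs also changed without it and are not reported here. The RNA is from bulk samples, so a smaller share of expressing cells and less RNA per cell cannot be told apart.

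To show the regulatory sequence of the genes that differed, start-site windows were taken from RefSeq (GRCm38.p6, 250 bases before to 50 bases after each annotated start). They covered 9 of the 10 genes, with 20 windows. *Ets1* was not among them. Each window was searched on both strands for CTTTGAA (TCF/LEF), GTAAACA (FOXO), CCGGAAG (ETS), CCACACCC (KLF), TGANTCA (BACH and AP-1) and TGGGAA (Ikaros). The 4 windows below are those with a match to a TCF/LEF, FOXO, ETS or KLF motif. The 250 bases before the start are printed 5′ to 3′ along the gene's strand, with matches in capitals.

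*Tcf7*, chr11:52282596-52282845, minus strand: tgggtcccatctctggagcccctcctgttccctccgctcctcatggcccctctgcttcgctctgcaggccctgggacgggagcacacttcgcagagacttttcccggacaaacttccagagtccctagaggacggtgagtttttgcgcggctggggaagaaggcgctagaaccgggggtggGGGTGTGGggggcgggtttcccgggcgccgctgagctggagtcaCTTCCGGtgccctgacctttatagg

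*Bach2*, chr4:32417185-32417434, plus strand: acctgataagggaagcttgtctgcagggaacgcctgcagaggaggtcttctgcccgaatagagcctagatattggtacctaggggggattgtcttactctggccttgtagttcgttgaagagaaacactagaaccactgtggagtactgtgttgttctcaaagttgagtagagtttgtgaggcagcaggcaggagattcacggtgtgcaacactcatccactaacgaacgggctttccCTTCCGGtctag

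*Bcl11b*, chr12:108003415-108003664, minus strand: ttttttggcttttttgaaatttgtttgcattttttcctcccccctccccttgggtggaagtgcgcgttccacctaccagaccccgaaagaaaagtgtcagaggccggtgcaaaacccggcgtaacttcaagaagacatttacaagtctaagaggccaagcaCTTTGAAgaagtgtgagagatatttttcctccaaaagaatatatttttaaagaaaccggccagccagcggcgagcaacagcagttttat

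*Foxp1*, chr6:99266516-99266765, minus strand: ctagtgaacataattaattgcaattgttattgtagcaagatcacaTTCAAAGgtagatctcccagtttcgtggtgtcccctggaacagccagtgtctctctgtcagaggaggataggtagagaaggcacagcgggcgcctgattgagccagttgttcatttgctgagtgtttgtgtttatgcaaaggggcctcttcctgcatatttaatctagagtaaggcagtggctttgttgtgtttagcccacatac

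Positions are counted from the annotated start, with bases before it negative. The printed *Tcf7* window, at a start inside the gene, held a KLF match at position -69 and an ETS match at -25, and a FOXO match lay just past the printed bases. The window at the outermost *Tcf7* start held no match to these motifs. The window at an internal *Bach2* start held an ETS match at -12. The *Bcl11b* window held a TCF/LEF match at -89, and the window at an internal *Foxp1* start held one at -205. Among all 32851 windows of the same length, 5.14% held the TCF/LEF motif, 3.65% FOXO, 8.86% ETS, 3.56% KLF, 7.81% BACH and AP-1, and 25.6% Ikaros. Ikaros matches were found in windows of *Lef1*, *Foxp1* and *Satb1*. No BACH and AP-1 match was found, and no matches overlapped. No binding was measured in these samples, and a match describes letters only.

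All 10 factors were abundant mRNAs in every group. By mean CPM over the 12 samples, they lay above 82.5% (*Bach2*) to 99.2% (*Tcf7*) of tested genes. Per kilobase of annotated exon, *Tcf7* had the highest level in B6 CD4+ T cells (603 ± 31.0 CPM per kilobase), followed by *Klf2* (215 ± 8.74), *Ets1* (190 ± 15.7) and *Ikzf1* (148 ± 7.37). *Foxo1* (51.6 ± 1.87), *Lef1* (42.7 ± 3.07), *Bcl11b* (36.5 ± 5.06) and *Satb1* (31.7 ± 0.590) came next, and the values of *Bcl11b* overlapped those of *Lef1* and of *Satb1*. *Foxp1* (10.4 ± 1.15) and *Bach2* (9.75 ± 1.21) had the lowest, and their 3 values overlapped. The lengths count every annotated exon, used or not, and *Foxp1* has 31 annotated transcripts and *Satb1* 14.

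*Tcf7* and *Lef1* encode the HMG-box pair. *Tcf7* (ENSMUSG00000000782.15, GRCm38 chromosome 11, 52252371 to 52283014, minus strand) was at 1637, 1622 and 1489 CPM in B6 CD4+ replicates 1, 2 and 3 and at 1249, 1260 and 1114 CPM in B6 CD8+ T cells. In CD8Dual mice it was at 1165, 1505 and 1485 CPM in CD8.1 and at 1164, 1124 and 1131 CPM in CD8.2 T cells. The B6 groups did not overlap, and CD8.1 replicate 1 was next to the highest CD8.2 sample. *Lef1* (ENSMUSG00000027985.14, chromosome 3, 131110471 to 131224356, plus strand) was at 393, 387 and 344 CPM in B6 CD4+ and at 344, 330 and 284 CPM in B6 CD8+ T cells. It was at 313, 405 and 456 CPM in CD8.1 and at 310.3, 310.2 and 329 CPM in CD8.2 T cells. The *Lef1* values overlapped in both strains, and in CD8Dual mice the overlap was again CD8.1 replicate 1.

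*Foxo1* was highest in B6 CD4+ T cells, whereas the groups overlapped for its recirculation target *Klf2*. *Foxo1* (ENSMUSG00000044167.6, chromosome 3, 52268336 to 52353221, plus strand) was at 465, 443 and 433 CPM in B6 CD4+ and at 330.1, 324 and 329.9 CPM in B6 CD8+ T cells. It was at 330.3, 378 and 386 CPM in CD8.1 and at 300.5, 316 and 312 CPM in CD8.2 T cells. All B6 CD4+ values of *Foxo1* lay above all others, and the CD8.1 values lay between those of B6 CD4+ and CD8.2 T cells. *Klf2* (ENSMUSG00000055148.7, chromosome 8, 72319033 to 72321656, plus strand) was at 405, 407 and 378 CPM in B6 CD4+ and at 460.1, 441 and 391 CPM in B6 CD8+ T cells. It was at 391, 542 and 515 CPM in CD8.1 and at 406, 436 and 442 CPM in CD8.2 T cells. *Klf2* values of all 4 groups overlapped, and its highest values were those of CD8.1 replicates 2 and 3.

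Of the repressors of activation, *Foxp1* was lower in the CD8Dual samples and *Bach2* was highest in B6 CD4+ T cells. *Foxp1* (ENSMUSG00000030067.17, chromosome 6, 98925338 to 99522721, minus strand) was at 158, 147 and 127 CPM in B6 CD4+ and at 148, 139 and 130.0 CPM in B6 CD8+ T cells. It was at 94.6, 106 and 125 CPM in CD8.1 and at 112, 107 and 108 CPM in CD8.2 T cells. Every CD8Dual sample was below every B6 sample. *Bach2* (ENSMUSG00000040270.16, chromosome 4, 32238804 to 32586108, plus strand) was at 110.3, 93.2 and 87.2 CPM in B6 CD4+ and at 71.7, 61.3 and 63.6 CPM in B6 CD8+ T cells. It was at 75.7, 64.1 and 76.9 CPM in CD8.1 and at 56.2, 62.8 and 58.4 CPM in CD8.2 T cells. B6 CD4+ T cells were above all other samples, and CD8.1 replicate 2 was close to the highest CD8.2 sample.

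The chromatin organizer *Satb1* and the commitment factor *Bcl11b* were highest in B6 CD4+ T cells. *Satb1* (ENSMUSG00000023927.15, chromosome 17, 51736187 to 51833290, minus strand) was at 616, 594 and 599.9 CPM in B6 CD4+ and at 436.1, 436.2 and 456 CPM in B6 CD8+ T cells. It was at 428, 464 and 483 CPM in CD8.1 and at 387, 405 and 416 CPM in CD8.2 T cells. CD8.1 values overlapped those of B6 CD8+ T cells and lay below those of B6 CD4+ T cells. *Bcl11b* (ENSMUSG00000048251.15, chromosome 12, 107910403 to 108003602, minus strand) was at 335, 302 and 253 CPM in B6 CD4+ and at 202, 199 and 172 CPM in B6 CD8+ T cells. It was at 174, 189 and 227 CPM in CD8.1 and at 172.1, 169 and 171.6 CPM in CD8.2 T cells. The lowest B6 CD4+ value stood above every value of the other 3 groups.

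*Ets1* and *Ikzf1*, the broad lymphoid factors, were also highest in B6 CD4+ T cells. *Ets1* (ENSMUSG00000032035.15, chromosome 9, 32636221 to 32757820, plus strand) was at 1458, 1702 and 1673 CPM in B6 CD4+ and at 1038, 1045 and 1004 CPM in B6 CD8+ T cells. It was at 1396, 1150 and 1098 CPM in CD8.1 and at 784, 1024 and 1006 CPM in CD8.2 T cells. CD8.1 replicate 1 was the highest CD8Dual sample and CD8.2 replicate 1 the lowest. *Ikzf1* (ENSMUSG00000018654.17, chromosome 11, 11685003 to 11772926, plus strand) was at 903, 849 and 819 CPM in B6 CD4+ and at 753, 748 and 779 CPM in B6 CD8+ T cells. It was at 759, 685 and 676 CPM in CD8.1 and at 741, 763 and 736 CPM in CD8.2 T cells. The lowest *Ikzf1* values were those of CD8.1 replicates 2 and 3.

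**Figure D1:**
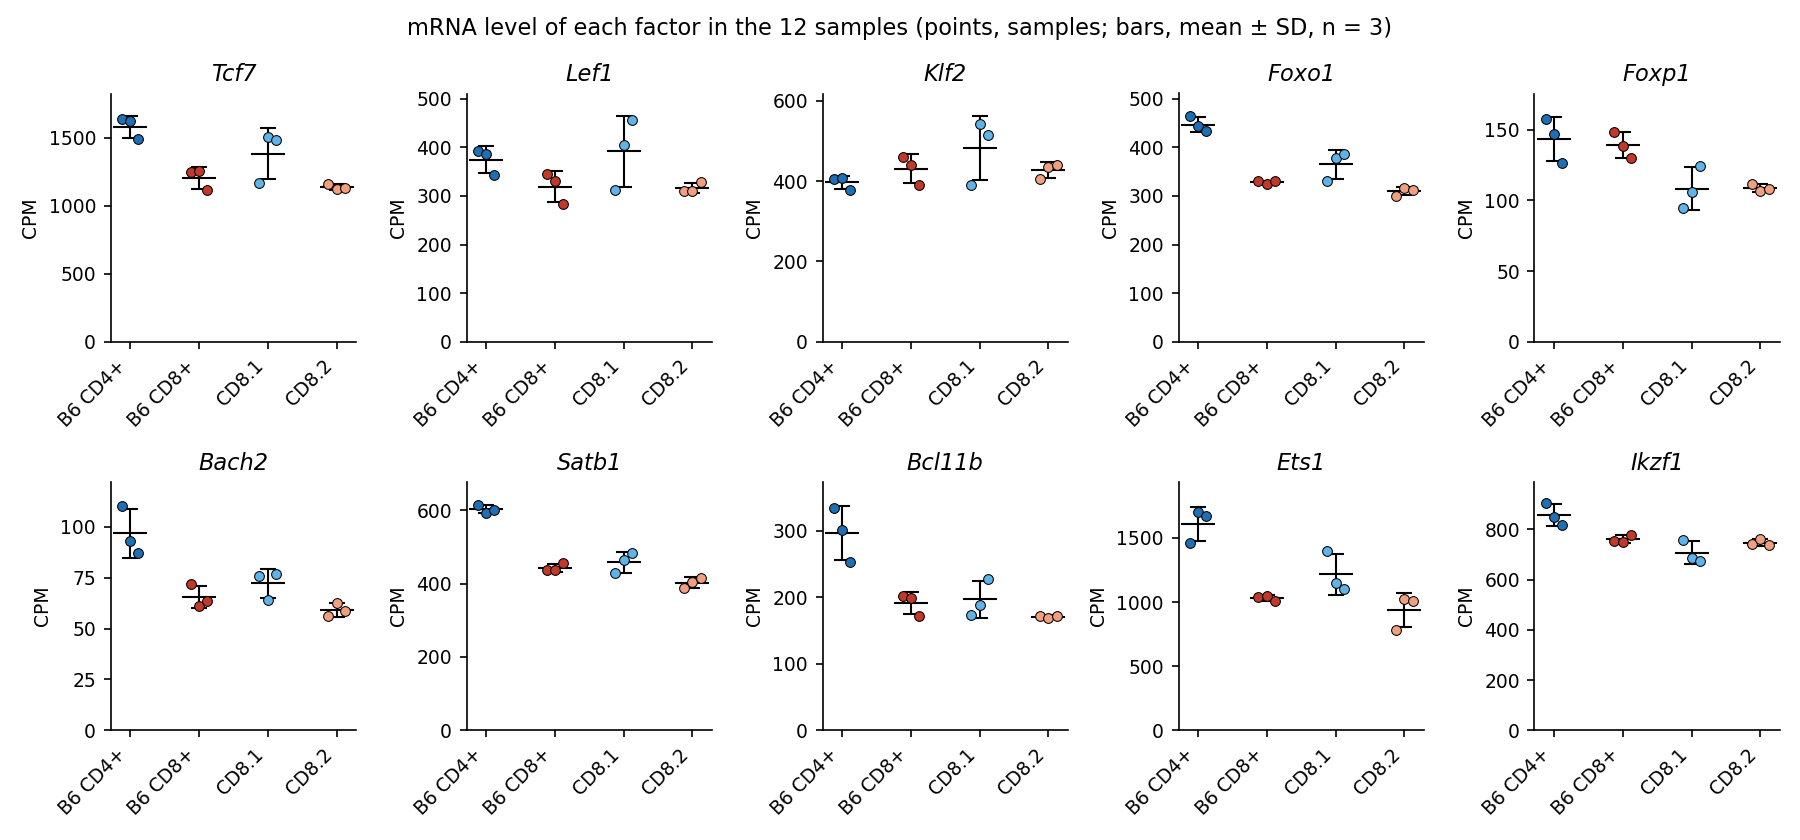
CPM (linear axis from 0) of the 10 factors in each of the 12 samples, with the mean and SD of each group (n = 3). B6 CD4+ T cells are highest for *Tcf7*, *Foxo1*, *Bach2*, *Satb1*, *Bcl11b*, *Ets1* and *Ikzf1*, whereas *Foxp1* is lower in both CD8Dual groups and the CD8.1 samples spread most for *Tcf7*, *Lef1* and *Klf2*.

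The first comparison asked whether these factors differ between the helper and cytotoxic lineages of normal mice. In B6 mice, 6 of the 10 factors were higher in CD4+ than in CD8+ T cells and 0 were lower (edgeR quasi-likelihood test, adjusted P under 0.05 over all tested genes). Across all 13118 genes, 11.4% were called higher and 11.7% lower. No member was lower at an unadjusted P under 0.05 or by the DESeq2 Wald test. The median log2 fold change was 0.42 over the 10 factors and -0.0011 over all tested genes.

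*Tcf7* was 1.31-fold higher in B6 CD4+ T cells (log2 fold change 0.39 ± 0.09, SE, adjusted P = 0.00507), whereas for *Lef1* the difference was 0.23 ± 0.11 (adjusted P = 0.172). *Foxo1* was 1.36-fold higher (0.45 ± 0.07, adjusted P = 0.000182). For its target *Klf2* the log2 difference was -0.12 with a 95% confidence interval of -0.34 to 0.10, and for *Foxp1* it was 0.05 with an interval of -0.17 to 0.26. Neither interval reached the 1.36-fold change of *Foxo1* in the higher direction.

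*Bach2* was 1.48-fold higher in B6 CD4+ T cells (0.56 ± 0.10, adjusted P = 0.000613). *Satb1* was 1.36-fold higher (0.45 ± 0.07, adjusted P = 0.000101) and *Bcl11b* was 1.55-fold higher (0.63 ± 0.11, adjusted P = 0.000441). The largest of the 10 differences was that of *Ets1*, at 1.57-fold (0.65 ± 0.11, adjusted P = 0.00034). *Ikzf1* differed by 0.17 ± 0.07 (adjusted P = 0.079) although its groups did not overlap. No call was lost when any of the 12 samples was left out (6 to 8 called). In this comparison 7 of 10 regulatory T cell markers were higher and 1 lower in CD4+ T cells, and 1 of 10 memory markers was higher and 8 lower. Their part in the members' differences was not tested. Without CD8.1 replicate 1, which enters the shared estimate of the spread, *Lef1* (adjusted P = 0.0405) and *Ikzf1* (adjusted P = 0.022) were called as well, in a fit that called 13.8% of tested genes higher.

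The same question was then asked in CD8Dual mice, where both T cell groups carry CD8. Here 5 of the 10 factors were higher in CD8.1 relative to CD8.2 T cells and 0 were lower, against 14.9% of all tested genes called higher and 13.8% lower. No member was lower at an unadjusted P under 0.05 or by the DESeq2 Wald test. The median log2 fold change was 0.22 over the members and -0.00465 over all tested genes, and the median size of a change regardless of sign was 0.221 and 0.243. *Ets1* was 1.295-fold higher (0.37 ± 0.11, adjusted P = 0.0175), and this difference was the largest of the 10.

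*Tcf7* was 1.22-fold higher in CD8.1 T cells (0.28 ± 0.09, adjusted P = 0.0305), and for *Lef1* the difference was 0.31 ± 0.11 (adjusted P = 0.0553). *Foxo1* was 1.18-fold higher (0.24 ± 0.07, adjusted P = 0.0185), while for *Klf2* the difference was 0.17 ± 0.10 (adjusted P = 0.226). *Bach2* was 1.22-fold higher (0.29 ± 0.10, adjusted P = 0.0444) and *Satb1* was 1.14-fold higher (0.19 ± 0.07, adjusted P = 0.0442). The values of *Bcl11b* did not overlap between the groups, but its difference of 0.20 ± 0.11 did not pass the test (adjusted P = 0.179). *Foxp1* had a difference of -0.01 with an interval of -0.22 to 0.21, and *Ikzf1* one of -0.08 with an interval of -0.22 to 0.06.

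These calls rested on individual libraries. The count was 0 without CD8.2 replicate 1 and 1 without CD8.1 replicate 3 or CD8.2 replicate 3. It was 2 without CD8.1 replicate 2 or CD8.2 replicate 2, and 2 when only these 2 groups entered the fit. It was 3 without B6 CD4+ replicate 2 or any of the 3 B6 CD8+ samples. Higher calls over all genes moved too, from 1956 of 13118 in the full fit. Without CD8.2 replicate 1, 2 or 3 they were 1368 of 13437, 1565 of 13495 and 1339 of 13451. Without CD8.1 replicate 2 or 3 they were 1381 of 13363 and 1585 of 13434. Without B6 CD4+ replicate 2 they were 1849 of 13412, and with only these 2 groups 1708 of 12505. Without B6 CD8+ replicate 1, 2 or 3 they were 1858 of 13423, 1831 of 13425 and 1962 of 13440. Of the 12 samples, leaving out 11 in turn ended the call of *Satb1*, 9 that of *Bach2*, 5 that of *Tcf7*, 4 that of *Foxo1* and 2 that of *Ets1*. The log2 differences of the 5 stayed above 0 in all 12 of these fits, between 0.14 for *Satb1* and 0.43 for *Ets1*. Without CD8.1 replicate 1 the count was again 5, with different genes: *Lef1* (0.43, adjusted P = 0.00145) and *Klf2* (0.29, adjusted P = 0.00615) were called and *Bach2* (0.24, adjusted P = 0.0955) and *Ets1* (0.25, adjusted P = 0.0644) were not, where 18.2% of tested genes were called higher. Beside these calls, 9 of 10 regulatory T cell markers were higher and 1 lower in CD8.1 T cells, and 3 of 10 memory markers were higher and 6 lower. *Foxp3*, the defining factor of regulatory T cells, had a mean of 140 CPM in the CD8.1 samples and 1.24 CPM in the CD8.2 samples. The part of these cells in the members' differences was not tested.

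**Figure D2:**
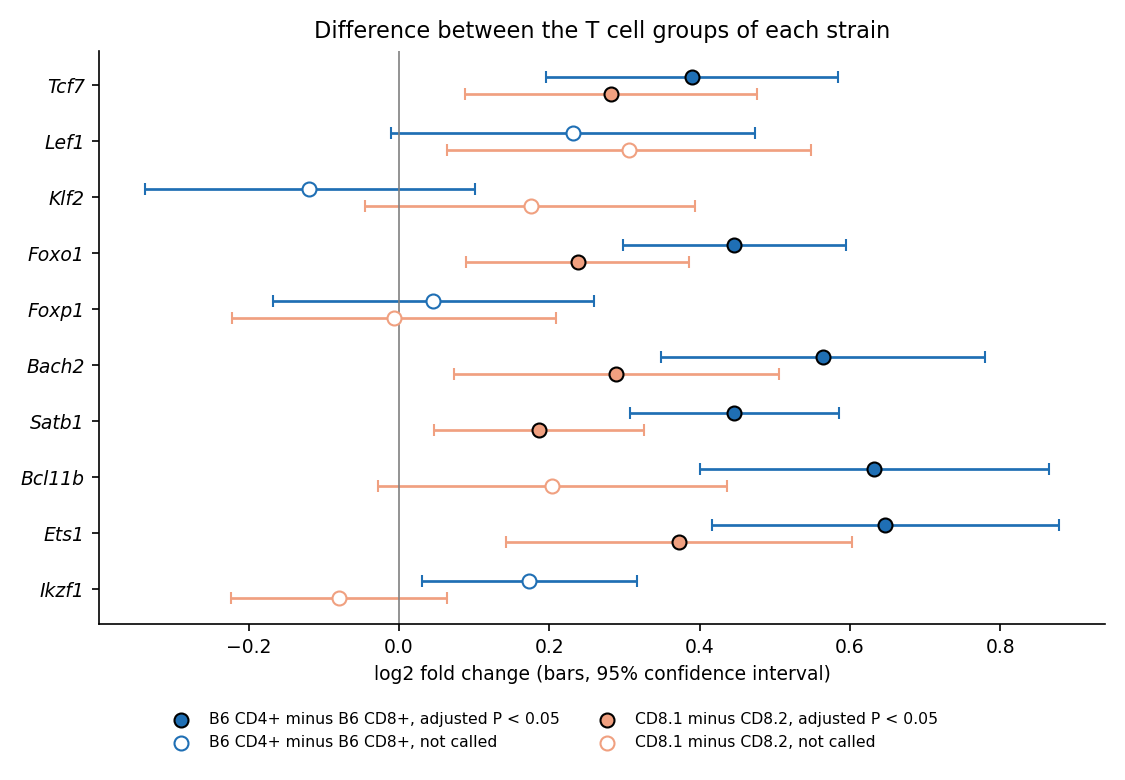
Log2 fold change (points) and 95% confidence interval (bars) of each factor between the T cell groups of a strain, B6 CD4+ minus CD8+ in blue and CD8.1 minus CD8.2 in orange, with filled points for an adjusted P under 0.05. For all factors but *Lef1* and *Klf2* the CD8Dual point lies to the left of the B6 point, and for each factor both intervals overlap.

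Whether the lineage difference itself differed between the strains was tested as an interaction, the CD8.1 minus CD8.2 difference less the B6 CD4+ minus CD8+ difference. By edgeR, 0 of the 10 factors were called in either direction, against 1.58% of tested genes called higher and 0.290% called lower. The DESeq2 Wald test also called 0 of them. There were 3 with an unadjusted P under 0.05, all below 0, against 5.47% of tested genes below 0 and 7.80% above 0 at that limit. They were *Bcl11b* (-0.43 ± 0.15, adjusted P = 0.237), *Satb1* (-0.26 ± 0.09, adjusted P = 0.234) and *Ikzf1* (-0.25 ± 0.10, adjusted P = 0.26). Without CD8.1 replicate 1, the interaction was called for *Klf2* in the higher direction (0.41, adjusted P = 0.0162) and for *Ikzf1* in the lower direction (-0.32, adjusted P = 0.0178), in a fit that called 5.36% of tested genes higher and 4.77% lower.

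CD8.1 T cells were next set against B6 CD4+ T cells, the group whose co-receptor is also made from the *Cd4* locus. Here 7 of the 10 factors were lower in CD8.1 T cells and 0 were higher, against 5.82% of all tested genes called lower and 6.94% called higher. In the higher direction 1 member, *Klf2*, had an unadjusted P under 0.05, and the DESeq2 Wald test called 0. Of all 13118 tested genes, 3771 had such an unadjusted P in either direction, and the DESeq2 Wald test called 1131 higher. The median log2 fold change of the members was -0.34, and that of all tested genes was 0.0025.

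*Bcl11b* was 1.51-fold lower in CD8.1 than B6 CD4+ samples (-0.59 ± 0.11, adjusted P = 0.00334) and *Satb1* 1.32-fold lower (-0.40 ± 0.07, adjusted P = 0.00159). *Bach2* was 1.34-fold lower (-0.42 ± 0.10, adjusted P = 0.0139), *Ets1* 1.33-fold lower (-0.41 ± 0.11, adjusted P = 0.0231) and *Foxp1* 1.32-fold lower (-0.41 ± 0.10, adjusted P = 0.0172). *Foxo1* was 1.23-fold lower (-0.29 ± 0.07, adjusted P = 0.0138) and *Ikzf1* 1.21-fold lower (-0.28 ± 0.07, adjusted P = 0.0151). The values of these 7 did not overlap between the groups, and the share of all tested genes without overlap was not computed. The HMG-box genes and *Klf2* were not called, with log2 differences of -0.19 ± 0.09 for *Tcf7* (adjusted P = 0.178), 0.06 ± 0.11 for *Lef1* (adjusted P = 0.763) and 0.28 ± 0.10 for *Klf2* (adjusted P = 0.0843).

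The count of 7 was 3 without CD8.1 replicate 2, 4 without B6 CD4+ replicate 1 and 5 without B6 CD4+ replicate 2 or CD8.1 replicate 3. It was 7 without CD8.1 replicate 1, and 2 (*Satb1* and *Bcl11b*) when only these 2 groups were fitted. Lower calls over all genes moved too, from 763 of 13118 in the full fit. Without CD8.1 replicate 1, 2 or 3 they were 1412 of 13389, 359 of 13363 and 716 of 13434. Without B6 CD4+ replicate 1 or 2 they were 336 of 13438 and 398 of 13412. With only these 2 groups they were 262 of 12610. *Foxo1*, *Satb1* and *Bcl11b* were called in all 12 of the fits that left a sample out. Without CD8.1 replicate 1, *Klf2* was called higher in CD8.1 T cells (0.40, adjusted P = 0.00174), as were 11.5% of tested genes.

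Markers of other T cell types moved with this comparison. All 10 regulatory T cell markers tested were higher in CD8.1 than B6 CD4+ samples, and the summed level of the list was 888 to 1033 CPM in CD8.1 T cells, against 405 to 529.7 in the B6 CD4+, 359.6 to 386 in the B6 CD8+ and 226 to 236 in the CD8.2 samples. *Itgae*, which CD8+ T cells also express, made up much of the sum in B6 CD8+ (mean 246 CPM) and CD8.2 T cells (101 CPM), and was at 4.62 CPM in B6 CD4+ and 29.1 CPM in CD8.1 T cells. *Foxp3*, which defines regulatory T cells, was at 102, 149 and 168 CPM in CD8.1 and at 32.6, 37.8 and 44.6 CPM in B6 CD4+ T cells, a 3.64-fold difference (adjusted P = 1.18e-05). In B6 CD8+ T cells its mean was 0.333 CPM, and in CD8.2 T cells 1.24 CPM. CD8.1 replicate 1 had the lowest *Foxp3* of its group.

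Of the 10 memory markers, 9 were higher in CD8.1 than B6 CD4+ samples and 0 were lower. Their sum was 515 to 602 CPM against 221 to 280.2. It was higher still in CD8.2 (1136 to 1160 CPM) and B6 CD8+ samples (1642 to 2039 CPM). In B6 mice 8 of the 10 were lower and 1 was higher in CD4+ than in CD8+ T cells. The list thus also follows the CD8 lineage and does not count memory cells alone. *Cd44*, whose protein marks memory T cells, was 2.05-fold higher (72.0 ± 5.13 against 35.1 ± 2.16 CPM, adjusted P = 8.02e-05). The part of regulatory and memory T cells in the differences of the 7 factors was not tested.

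CD8.2 T cells were set against B6 CD8+ T cells in the same way. *Foxp1* was the only factor called, 1.28-fold lower in CD8.2 T cells (-0.35 ± 0.10, adjusted P = 0.0442), against 4.66% of tested genes called lower and 3.29% called higher, and 0 members were called higher, also at an unadjusted P under 0.05 and by the DESeq2 Wald test. All 10 log2 differences were below 0, from -0.35 (*Foxp1*) to -0.01 (*Klf2*), with a median of -0.11 against -0.00355 over all tested genes. The median size of a change regardless of sign was 0.109 over the members and 0.169 over all tested genes. *Foxp1* alone had an unadjusted P under 0.05. Of the 12 fits that left a sample out, 4 turned the difference of *Lef1* above 0 and 2 that of *Klf2*. The next largest were *Bcl11b* (-0.16 ± 0.11, adjusted P = 0.397) and *Bach2* (-0.15 ± 0.10, adjusted P = 0.407).

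The *Foxp1* call ended without B6 CD4+ replicate 2, B6 CD8+ replicate 1 or 2, or any of the 3 CD8.2 samples, with adjusted P values up to 0.165 and log2 differences of -0.41 to -0.31 throughout. In this comparison 5 of 10 memory markers were lower in CD8.2 T cells (summed level 1136 to 1160 CPM against 1642 to 2039 in B6 CD8+ T cells) and 0 were higher. Their part in the *Foxp1* difference was not tested.

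**Figure D3:**
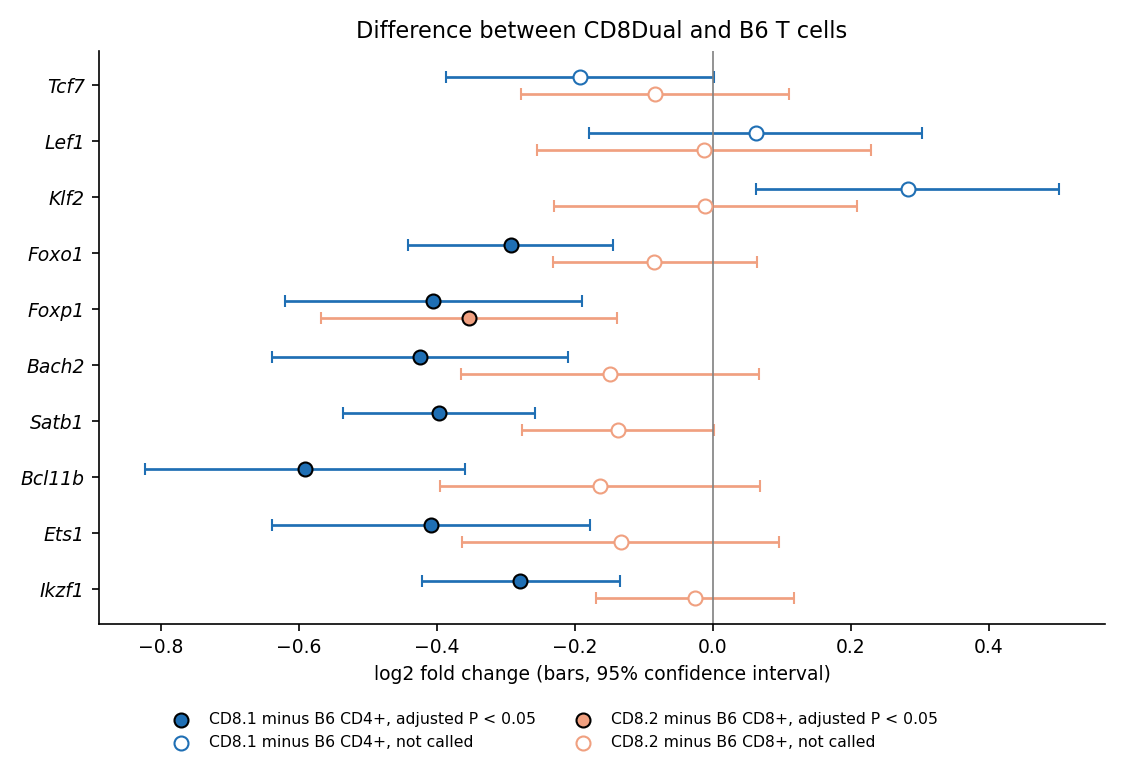
Log2 fold change (points) and 95% confidence interval (bars) of each factor between the strains, CD8.1 minus B6 CD4+ in blue and CD8.2 minus B6 CD8+ in orange, with filled points for an adjusted P under 0.05. All factors but *Lef1* and *Klf2* lie below 0 in CD8.1 T cells, 7 of them called, and in CD8.2 T cells *Foxp1* alone is called.

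The remaining pairs of groups, which share samples with those above, gave the following. Against B6 CD8+ T cells, CD8.1 T cells had *Foxp1* lower (-0.36 ± 0.10, adjusted P = 0.0109) and 0 factors called higher, where 19.5% of tested genes were called lower and 19.6% higher. At an unadjusted P under 0.05, 4 were higher, and the DESeq2 Wald test called 2 (*Lef1* and *Foxo1*). Of all 13118 tested genes, 6219 had such an unadjusted P in either direction, and the DESeq2 Wald test called 2661 higher. Without CD8.1 replicate 1, *Tcf7*, *Lef1*, *Klf2* and *Foxo1* were called higher, with adjusted P values of 0.00246, 0.00145, 0.00635 and 0.00797 (edgeR), and *Ikzf1* was called lower (-0.17, adjusted P = 0.0247), as were 20.6% and 22.4% of tested genes in these directions.

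CD8.2 T cells had 8 factors lower than B6 CD4+ T cells and 0 higher, the latter also at an unadjusted P under 0.05 and by the DESeq2 Wald test, where 13.6% of tested genes were lower and 13.3% higher. The differences ran from -0.80 for *Bcl11b* and -0.78 for *Ets1* to -0.20 for *Ikzf1*, and *Lef1* (-0.24 ± 0.11, adjusted P = 0.132) and *Klf2* (0.11 ± 0.10, adjusted P = 0.488) were not called. The call of *Ikzf1* ended without B6 CD4+ replicate 1 or 2, B6 CD8+ replicate 1 or 2, or any of the 3 CD8.2 samples, and *Lef1* was called lower without CD8.1 replicate 1 (adjusted P = 0.0285), as were 15.8% of tested genes. In a joint test of any difference among the 4 groups, 8 of the 10 factors passed, against 44.2% of all tested genes. *Lef1* (adjusted P = 0.0662) and *Klf2* (adjusted P = 0.151) did not.

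Samples of a group did not vary in the same way for all factors. After the mean of each group was taken away, *Tcf7*, *Lef1* and *Klf2* deviated together over the 12 samples, with Pearson correlations of 0.924 (*Tcf7* and *Lef1*), 0.928 (*Tcf7* and *Klf2*) and 0.90 (*Lef1* and *Klf2*). Without CD8.1 replicate 1, a comparison chosen after seeing the data, these were 0.784, 0.739 and 0.71 over 11 samples. Such ties were not limited to *Tcf7*, *Lef1* and *Klf2*. *Lef1* correlated with *Foxp1* at 0.891 and with *Bcl11b* at 0.859, and at 0.861 and 0.902 without that library. Without it, *Lef1* was thus closer to both than to *Tcf7* or *Klf2*. *Foxo1* correlated with *Tcf7* (0.781), *Lef1* (0.808) and *Klf2* (0.827), but these fell to 0.143, 0.399 and 0.326 without that library. *Foxp1* and *Bcl11b* had the highest correlation, 0.97, and 0.972 without that library. The negative correlations of *Tcf7* with *Ets1* (-0.587) and with *Ikzf1* (-0.591) rested on CD8.1 replicate 1, since they were -0.212 and 0.106 without it. These values are descriptions over samples that share libraries and depth. Its deviation in log2 CPM was -0.24 for *Tcf7*, -0.30 for *Lef1*, -0.29 for *Klf2* and 0.21 for *Ets1*.

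**Figure D4:**
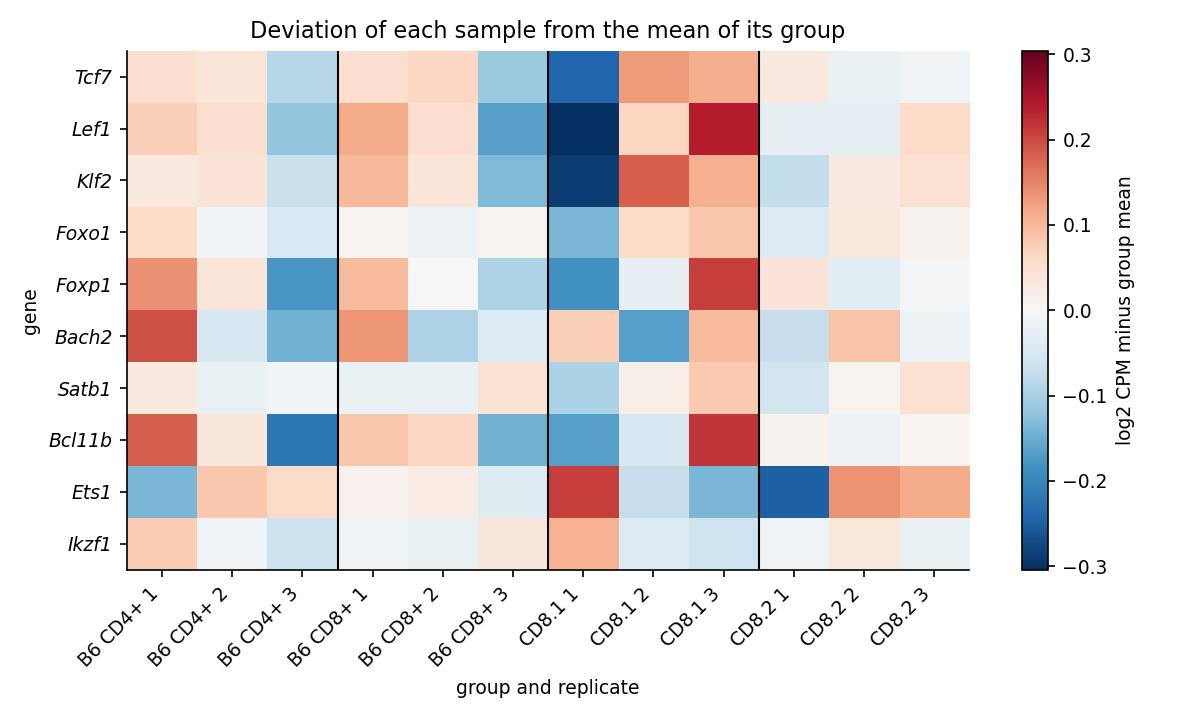
Log2 CPM of each factor in each sample minus the mean of its group (colors, red above and blue below), with B6 samples on the left and CD8Dual samples on the right. CD8.1 replicate 1 is low for *Tcf7*, *Lef1* and *Klf2* (-0.24, -0.30 and -0.29) and high for *Ets1* (0.21).

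For each of the 8 factors that passed the joint test, the tested genes most like it in log2 CPM over the 12 samples were found. Those of *Tcf7* were *Mical3* (r = 0.983) and *Ttyh3* (0.981), and those of *Foxp1* were *Phf21a* (0.989) and *Kat6b* (0.981). Like *Foxp1*, *Phf21a* was at mean levels of 37.7 and 38.3 CPM in the B6 CD4+ and CD8+ groups and 25.8 and 26.9 CPM in the CD8.1 and CD8.2 groups. *Satb1* was nearest to *Rasgrp1* (0.972), which carries T cell receptor signals to Ras, and *Fads6* (0.958). *Foxo1* was nearest to *Bcl9* (0.965) and *Fmnl3* (0.963), and *Bcl11b* to *Micall1* (0.969) and again *Fmnl3* (0.963). The members *Foxo1* and *Satb1* correlated with each other at 0.974. *Bach2* was nearest to *Ankrd50* (0.947) and the receptor segment *Trav9-4* (0.941), *Ets1* to the segments *Trav4-4-dv10* (0.968) and *Trdv1* (0.948), and *Ikzf1* to *Kmt5b* (0.936) and *A630014C17Rik* (0.909). The last overlaps *Tcf7* on the opposite strand, with no shared exonic bases.

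Several members overlap other annotated genes, and the use of strand in counting is not given in the sources used here. Exons on the opposite strand share 1208 bases with *Lef1* (*Gm43352*), 674 with *Foxo1* (*Gm20402*), 537 with *Bach2* (*Bach2os*) and 128 with *Satb1* (*Gm6934*), so reads of these stretches could be assigned to either gene. *Foxp1* shares 435 exonic bases and *Satb1* 156 with genes on its own strand. The exons of *Tcf7*, *Klf2*, *Bcl11b*, *Ets1* and *Ikzf1* share none.

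Relatives of the members, from the same gene families, were read next, with 21 of 24 tested. In B6 CD4+ against CD8+ T cells 5 were higher and 4 lower, and in CD8.1 against CD8.2 T cells 7 were higher and 4 lower. *Ikzf3*, the Ikaros relative AIOLOS, was lower in both comparisons, 1.86-fold in B6 (86.3 against 161 CPM, adjusted P = 2.17e-06) and 1.36-fold in CD8Dual mice (82.1 against 111 CPM, adjusted P = 0.00195). *Ikzf4*, another Ikaros relative, was higher in both, 3.96-fold (13.6 against 3.45 CPM, adjusted P = 1.78e-07) and 8.27-fold (22.5 against 2.75 CPM, adjusted P = 1.93e-09). Between the strains, 5 relatives were higher and 2 lower in CD8.1 than B6 CD4+ samples, and 4 were higher and 3 lower in CD8.2 relative to B6 CD8+ T cells. *Klf6* was higher in both, 1.47-fold (adjusted P = 0.00336) and 1.49-fold (adjusted P = 0.00347). Of the 5 relatives higher in CD8.1 than B6 CD4+ samples, *Foxp3*, *Ikzf2* and *Ikzf4* are known from regulatory T cells, and *Foxp3* and *Ikzf2* also stand in the list of their markers.

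Among 21 genes for partners of these factors (Groucho corepressors, β-catenin, RUNX1 and its β subunit, and the nucleosome remodeling and deacetylase complex), 1 was higher and 5 were lower in B6 CD4+ than in CD8+ T cells. In CD8.1 against CD8.2 T cells, 2 were higher and 4 lower. *Runx1*, a DNA-binding partner of ETS1, was the higher one in B6 mice, at 76.8 against 27.6 CPM (2.78-fold, adjusted P = 1.06e-07), and was at 76.9 against 35.1 CPM in CD8Dual mice (2.19-fold, adjusted P = 2.36e-06). The Groucho corepressor *Tle4* was lower in both, 1.40-fold (adjusted P = 0.000939) and 1.54-fold (adjusted P = 0.000136). By edgeR, 0 partners passed in CD8.1 against B6 CD4+ or in CD8.2 against B6 CD8+ T cells. In the first, 3 were lower and 0 higher at an unadjusted P under 0.05, and the DESeq2 Wald test called the same 3 lower (*Ctnnb1*, *Ctbp1* and *Chd4*, named after their values were seen). In the second, 2 were higher and 3 lower at an unadjusted P under 0.05, and DESeq2 called *Tle3* lower.

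Known targets of FOXO1 and KLF2 were counted over 12 genes. In B6 mice 5 were higher and 1 lower in CD4+ T cells. *Ccr7*, a chemokine receptor for LN entry, was 1.42-fold higher (adjusted P = 3.36e-05) and the cell cycle inhibitor *Cdkn1b* 1.35-fold higher (adjusted P = 9.98e-05). In CD8Dual mice 4 were higher and 2 lower in CD8.1 T cells. *S1pr1*, the receptor for LN exit, was 1.38-fold higher (adjusted P = 0.000343).

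In the CD8.1 samples against B6 CD4+ samples, where *Foxo1* itself was lower, 0 of the 12 targets were called by edgeR. At an unadjusted P under 0.05, 4 were higher and 1 lower, and the DESeq2 Wald test called *Cdkn1b* higher. *Ccr7* was at 760.6 ± 5.35 against 762 ± 23.9 CPM and *Itgb7*, an integrin subunit for homing, at 829 ± 21.8 against 826 ± 32.6 CPM. In CD8.2 T cells 4 targets were higher relative to B6 CD8+ T cells and 0 lower, with 0 lower also at an unadjusted P under 0.05 and by the DESeq2 Wald test. These were *Cdkn1b* (1.36-fold, adjusted P = 0.000739), *Ccng2* (1.41-fold, adjusted P = 0.00371), *Ccr7* (1.24-fold, adjusted P = 0.00959) and *Txnip* (1.34-fold, adjusted P = 0.0226).

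Of 14 other quiescence genes tested, 3 were higher and 0 lower in B6 CD4+ T cells, namely *Slfn2* (1.64-fold, adjusted P = 6.93e-06), *Btg2* (1.54-fold, adjusted P = 0.000192) and *Btg1* (1.39-fold, adjusted P = 0.00302). *Slfn2* is required for T cell quiescence, and the BTG proteins restrain proliferation. In CD8.1 against CD8.2 T cells 3 were higher (*Tob1*, *Btg2* and *Slfn2*) and 1, *Pdcd4*, was lower. *Tob1* was also higher in CD8.1 than B6 CD4+ samples (1.47-fold, adjusted P = 0.0402) and *Tsc1* was lower (1.35-fold, adjusted P = 0.0321). In CD8.2 against B6 CD8+ T cells edgeR called *Slfn2*, 1.23-fold higher (adjusted P = 0.0356), and the DESeq2 Wald test called *Slfn2* and *Btg2* higher.

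Transcription factors of effector differentiation included genes with larger fold changes. Of 13 tested, 6 were higher and 3 lower in B6 CD4+ than in CD8+ T cells, and 9 were higher and 2 lower in CD8.1 relative to CD8.2 T cells. *Tbx21* and *Eomes*, the T-box factors of cytotoxic cells, were lower in both comparisons, with log2 fold changes of -4.46 and -3.90 in B6 and of -3.32 and -2.98 in CD8Dual mice. *Maf* was higher in both (4.66 and 4.39). In CD8.1 against B6 CD4+ T cells 7 were higher and 0 lower, among them *Bhlhe40* (2.34-fold, adjusted P = 0.00725), *Rora* (1.98-fold, adjusted P = 0.00694), *Id2* (1.45-fold, adjusted P = 0.00751) and *Batf* (1.41-fold, adjusted P = 0.0126). In CD8.2 against B6 CD8+ T cells 2 were higher (*Irf4* and *Prdm1*) and 1, *Tbx21*, was lower (2.27-fold, adjusted P = 0.000236).

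Markers of naive T cells were high in every group, with summed levels of 6350 to 8236 CPM over 11 genes that include *Ccr7* and T cell receptor genes. In CD8.1 against B6 CD4+ T cells 1 was called, *Igfbp4* (1.26-fold lower, adjusted P = 0.0236). In CD8.2 against B6 CD8+ T cells *Igfbp4* (1.76-fold, adjusted P = 7.47e-05) and *Dapl1* (1.69-fold, adjusted P = 0.00159) were lower and *Ccr7* was higher. Within the strains, 5 were higher and 2 lower in B6 CD4+, and 5 higher and 1 lower in CD8.1 T cells. Of the regulatory T cell markers, 2 were higher and 2 lower in CD8.2 than B6 CD8+ samples.

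Markers of other cells were summed in each sample. B cell markers summed to 694 to 1141 CPM, and 4 of 9 were higher in CD8.1 than B6 CD4+ samples. In CD8.2 against B6 CD8+ T cells 3 were higher. In B6 CD4+ against CD8+ T cells 5 were higher and 2 lower, and in CD8.1 against CD8.2 T cells 4 were higher. Myeloid markers summed to 3.41 to 24.8 CPM, with 4 of 7 higher in CD8.1 than B6 CD4+ samples. Of these 7, 1 was lower in B6 CD4+ against CD8+ T cells, and 1 was higher and 1 lower both in CD8.1 against CD8.2 and in CD8.2 against B6 CD8+ T cells. Natural killer cell markers summed to 3.96 to 13.6 CPM in B6 CD4+ and CD8.1 T cells and to 377 to 569 CPM in B6 CD8+ and CD8.2 T cells, of which *Nkg7*, a gene that cytotoxic T cells share, had a mean of 525 CPM in B6 CD8+ and 408 CPM in CD8.2 T cells. Of the 5 tested, 4 were lower in B6 CD4+ against CD8+ and 3 in CD8.1 against CD8.2 T cells, 2 were higher in CD8.1 against B6 CD4+ and 2 lower in CD8.2 against B6 CD8+ T cells. The part of these cells in the members' differences was not tested.

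**Figure D5:**
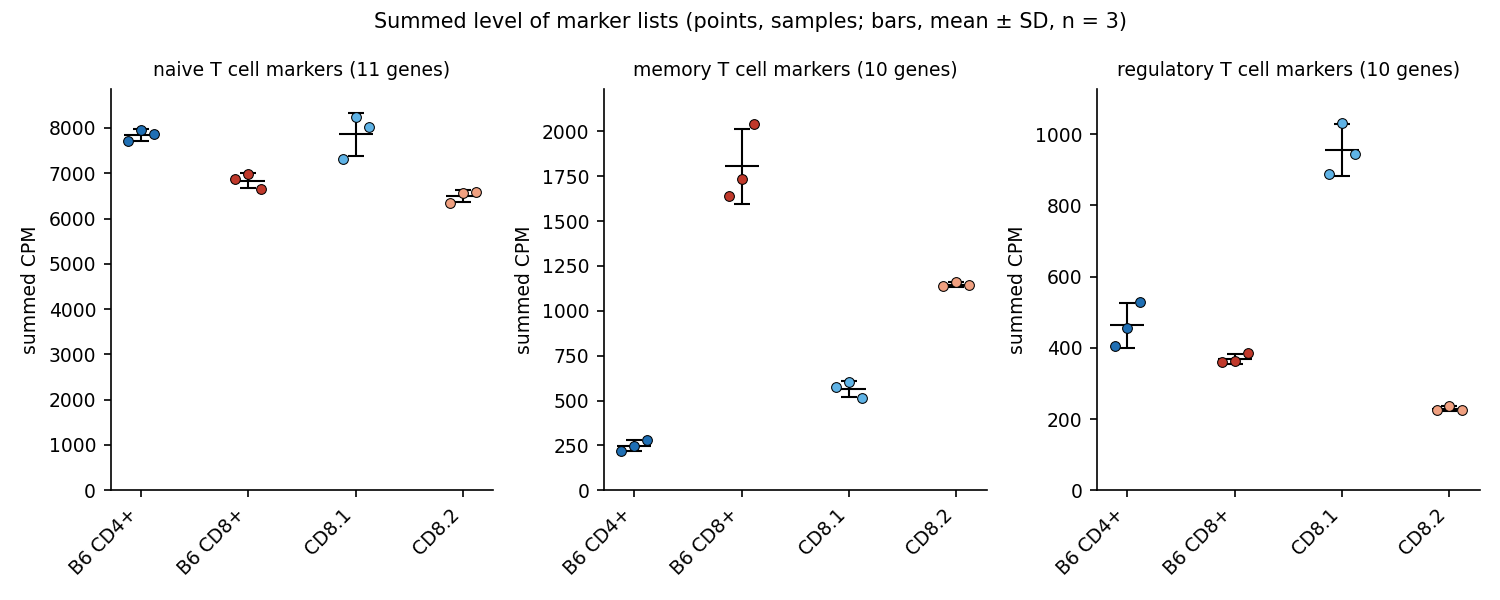
Summed CPM (linear axis from 0) of markers of naive, memory and regulatory T cells in each sample, with the mean and SD of each group (n = 3). CD8.1 samples have the highest regulatory T cell sums (888 to 1033 CPM). Their memory sums (515 to 602 CPM) lie above those of B6 CD4+ samples (221 to 280.2 CPM). They lie below those of CD8.2 (1136 to 1160 CPM) and B6 CD8+ samples (1642 to 2039 CPM).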

How the data were processed

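Raw counts per gene were deposited for 12 samples of sorted LN T cells (4 groups of 3). Per the labels and the study's methods, the authors aligned read pairs to mm10 with STAR and counted them with RSEM, and the deposited counts are not normalized. Tool versions, annotation release and strand use are not given in the sources used here. Column names gave the samples (0 left over). Totals of 18667474 to 37110502 left the spread between samples as the main error of the members.

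Differences were tested with edgeR 4.0.16 in R 4.3.3 (TMM, filterByExpr, glmQLFit, glmQLFTest, a coefficient per group, all 12 samples), and P values of the 13118 tested genes were adjusted by the Benjamini-Hochberg method and called under 0.05 with no fold limit. SEs follow from the fold change and its F statistic, and CPM from TMM-scaled totals. The procedure was tested on simulated data of 13118 genes, with 66 or 67 genes of any level changed at each fold. In the B6 comparison it recovered 9.09% of 1.25-fold, 53% of 1.5-fold and 63.1% of 2-fold changes, with 6 false calls. In CD8.1 against CD8.2 T cells it recovered 1.52%, 56.1% and 63.1%, with 4 false calls. Small changes were thus mostly missed in the simulation. It changed far fewer genes than the 1956 higher and 1815 lower calls of the data, and at any level. These shares therefore do not give the recovery of the abundant members in the data. Positions and exon lengths are from GENCODE M21 (GRCm38, 43749 identifiers matched) and start-site windows from RefSeq (GRCm38.p6). Plots were made in Python 3.11.15 (matplotlib 3.10.9).

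The members and gene lists were chosen with earlier results of these data known. The text names all members, at most 4 called genes per list and comparison by smallest adjusted P, and *Cd4*, *Cd8a* and *Zbtb7b*. It also names the 2 genes outside the members nearest to each member that passed the joint test. *Itgb7* and *Gm42418* were chosen after their values were seen. Some genes counted in the lists are not reported by name here. Replicates differed by more than sampling noise (chi-square per gene 8.58 to 85.0). Deviations of B6 samples with the same replicate number in the labels had correlations of 0.126, 0.138 and 0.257, all over the limit of 0.1. Samples of different strains and numbers also reached 0.17, as did CD8.2 replicate 3 with B6 CD8+ replicate 1. Whether the numbers pair the B6 samples is therefore not known. A block for the number changed no call in B6 mice. Alternatives were DESeq2 1.42.0 (size factors or Wald test), upper-quartile factors, no filter or a mean of at least 1 CPM, an unmoderated two-sample test on log2(CPM + 1), fits of only 2 groups, replicate blocks, a 5-fold limit, an adjusted P under 0.01, and each sample left out.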

Additional observations from a re-analysis of the deposited data

Results flagged for a closer look

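No member was among the genes whose lineage difference, CD8.1 minus CD8.2 against B6 CD4+ minus CD8+, differed between the strains. Genes of the lists read beside the members were. In the edgeR test of that difference, 15 listed genes passed an adjusted P under 0.05, and all had a difference above 0, so that the level in CD8.1 relative to CD8.2 T cells was higher than that in B6 CD4+ relative to CD8+ T cells. The log2 interactions of memory markers were 3.47 for *Ccl5*, 3.19 for *S100a6*, 2.95 for *Ly6c2*, 1.93 for *Il2rb*, 1.51 for *Cxcr3*, 0.92 for *Cd44* and 0.89 for *Itgb1*. Those of regulatory T cell markers were 3.93 for *Itgae*, 3.40 for *Tigit*, 2.65 for *Ikzf2* and 0.75 for *Capg*. *Ikzf2* and *Ikzf4* (1.06) are relatives of the member *Ikzf1*. *Bhlhe40*, a factor of effector cells, had 1.81, and the natural killer cell markers *Klre1* and *Nkg7* had 6.67 and 1.81. *Klre1* was not detected in B6 CD4+ T cells (mean 0.0285 CPM, where 3 counts equal 0.128 to 0.136 CPM), so that its value depends on the prior count of the fit and is no measured size.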

How the results depend on the processing

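In B6 mice 6 to 8 members were called under all alternatives except the two-sample test (4) and the limit of 5-fold, which left 0, as it did for every other count of members. The counts of the other comparisons moved. For CD8.1 against CD8.2 T cells, the 5 higher calls became 0 in the two-sample test and 2 with only the groups compared. They became 0 at an adjusted P under 0.01, and 0 to 5 when samples were left out in turn. Over all tested genes, the 1956 higher calls became 941 in the two-sample test, 1708 with only the groups compared and 1171 at an adjusted P under 0.01. In CD8.1 against B6 CD4+ samples, the 7 lower calls became 0 in the two-sample test, 2 with only the groups compared and 2 at an adjusted P under 0.01, and 3 to 7 with samples left out. A higher call of *Klf2* (0 in the fit as reported) was made with upper-quartile factors (1) and with no filter on low counts (1), and 0 to 1 were made with samples left out. For CD8.2 against B6 CD8+ T cells, the lower call became 0 in the two-sample test, 0 at an adjusted P under 0.01 and 0 to 1 with samples left out. For CD8.1 against B6 CD8+ T cells, higher calls were 1 with DESeq2 size factors, 4 with upper-quartile factors and 2 by the DESeq2 Wald test. They were 2 with no filter, 1 at a mean of at least 1 CPM and 0 to 4 with samples left out. Of all 13118 tested genes, 2614 were called higher with DESeq2 size factors, 3112 with upper-quartile factors and 2661 by the Wald test. With no filter 2583 of 23418 were, and at a mean of at least 1 CPM 2332 of 11271. The lower member call became 0 in the two-sample test, 0 at an adjusted P under 0.01 and 1 to 2 with samples left out. For CD8.2 against B6 CD4+ T cells, the 8 lower calls were 7 to 9 with samples left out. The interaction had 1 lower call with no filter (*Bcl11b*, -0.44), and 0 to 1 in each direction with samples left out. The cause of these changes was not tested.

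Same-numbered CD8Dual samples had correlations of -0.00388, 0.0905 and 0.119, not all over the limit of 0.1. With the replicate block within each strain, the higher calls in CD8.1 against CD8.2 T cells numbered 6, and the added gene was *Lef1* (log2 0.29, adjusted P = 0.0215). With the block shared by the strains, the count of lower calls in CD8.2 against B6 CD8+ T cells was 0. The blocks changed no other member's call.

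Signs turned only for differences that were not called. *Foxp1* in CD8.1 against CD8.2 T cells was 0.00071 with DESeq2 size factors, 0.046 with upper-quartile factors, 0.000708 by the Wald test, 0.00898 at a mean of at least 1 CPM and 0.00247 with only the groups compared. With samples left out in turn, log2 differences of *Foxp1* ranged from -0.0356 to 0.136 in B6 CD4+ against CD8+, from -0.128 to 0.0671 in CD8.1 against CD8.2 and from -0.171 to 0.024 in the interaction. Those of *Lef1* ranged from -0.0684 to 0.188 in CD8.1 against B6 CD4+, from -0.105 to 0.0359 in CD8.2 against B6 CD8+ and from -0.0567 to 0.20 in the interaction. That of *Klf2* ranged from -0.0903 to 0.0298 in CD8.2 against B6 CD8+ and that of *Bcl11b* from -0.0831 to 0.107 in CD8.1 against B6 CD8+. Upper-quartile factors moved the split of all calls in CD8.1 against CD8.2 T cells from 1956 higher and 1815 lower to 2342 and 1375, and in CD8.1 against B6 CD8+ T cells from 2574 and 2557 to 3112 and 2057. Counts over all genes moved most in the CD8.1 and B6 CD4+ comparison, from 911 higher and 763 lower to 6 and 4 in the two-sample test, 412 and 262 with only the groups compared, 332 and 222 at an adjusted P under 0.01, 55 and 25 past 5-fold and 1546 and 1412 without CD8.1 replicate 1. In CD8.2 against B6 CD8+ T cells, 431 higher and 611 lower became 165 and 233, 1129 and 1386, 128 and 211, and 41 and 35 under the first 4 of these. Those of the interaction, 207 higher and 38 lower, became 718 and 638 without CD8.1 replicate 1, 433 and 187 with no filter and 319 and 91 by the Wald test. Depth did not limit the members, each of which had at least 1130 counts in every sample. The precision was set by the spread between samples of a group, estimated over the 4 groups together.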
